A study of Mus musculus with 8 samples.

Results

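The genes described here encode the respiratory chain and the ATP synthase of mouse mitochondria, in both of the genomes that hold them. They were chosen by symbol: all genes beginning with mt-, Nduf, Uqcr or Atp5, the 4 succinate dehydrogenase genes Sdha to Sdhd, the cytochrome c genes Cycs and Cyc1, and the Cox4 to Cox8 families, without pseudogenes. This gave 136 of the 52636 genes counted. The mitochondrial genome contributed 37 of them, namely 13 mRNA, 2 rRNA and 22 tRNA genes. The nucleus contributed 99, with 49 named for complex I, 4 for complex II, 10 for complex III with cytochrome c, 19 for complex IV and 17 for complex V. Of the 99, 78 encode subunits present in most cells, 8 are assembly factors of complex I, 12 are tissue isoforms or gene copies, and 1 is the coupling factor gene Atp5s.

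RNA was sequenced from KLF4-KO E14 cells and from unedited (WT) E14 cells, a mouse embryonic stem cell line derived from the blastocyst. There were 2 libraries of each genotype. KLF4 is a zinc finger transcription factor of the pluripotency network. The labels call the libraries of a genotype biological replicates but do not say whether the KO libraries, called B and F here, came from separate clones, so the loss of KLF4 cannot be told apart from other differences between the lines, and p-values measure the spread between these libraries. KO and WT cells share the media in the labels, DMEM with fetal bovine serum and LIF on gelatin, given once with the MEK inhibitor PD0325901 and the GSK inhibitor CHIR99021 and once without them. RNA polymerase II contacts were measured by HiChIP in the same 2 genotypes, with 1 pooled file each.

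The respiratory chain passes electrons from NADH (complex I) and succinate (complex II) through ubiquinone, complex III and cytochrome c to oxygen at complex IV, and pumps protons that drive ATP synthesis at complex V. Complex II is wholly nuclear, while complexes I, III, IV and V also need subunits made in the mitochondrion from the circular mitochondrial DNA, which is transcribed from both strands as long precursors that are cut at the tRNAs. Naive mouse embryonic stem cells are known to use both oxidative phosphorylation and glycolysis, and primed pluripotent cells to rely more on glycolysis.

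Gene counts summed to 8448519 and 8287497 in the KO libraries, against 9020599 and 9762190 in the WT libraries. Klf4 had 0 counts in both KO libraries, against 2882 and 2421 in the WT libraries. All 8 embryonic stem cell markers were tested and none was called by edgeR or limma voom, with 1 at an unadjusted p under 0.05, while DESeq2 called 1. Their summed level was 7773 and 7032 CPM in KO cells, against 6444 and 8428 CPM in WT cells, where CPM is the usual unit of counts scaled to library size, here after TMM scaling. Of 10 fibroblast markers 4 were tested and none was called by edgeR, DESeq2 or limma voom, with 2 at an unadjusted p under 0.05. Postn, Lum and Prrx1 were at 0 in all libraries, and the list summed to 26.4 and 19.6 CPM in KO cells, against 27.6 and 28.3 CPM in WT cells. Primitive endoderm markers summed to 7.05 and 5.55 CPM in KO cells, against 6.78 and 7.48 CPM in WT cells. Of the 2 tested, 1 was called, higher in KO cells, and 1 was lower at an unadjusted p under 0.05 by edgeR. Trophoblast markers summed to 151 and 77.5 CPM in KO cells, against 98.2 and 115 CPM in WT cells. Of the 5 tested, edgeR called 1, higher in KO cells, and DESeq2 and limma voom called none. Another 1 was lower at an unadjusted p under 0.05 by edgeR. Neural progenitor markers summed to 20.7 and 13.7 CPM in KO cells, against 34.9 and 40.1 CPM in WT cells. Of these 2 of 3 were called, 1 higher and 1 lower in KO cells. The part of these cell types in the results was not tested. In bulk RNA, fewer cells that express a gene and less RNA of it per cell cannot be told apart.

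Few single genes of the respiratory chain were called between KO and WT cells. By edgeR's quasi-likelihood test with Benjamini-Hochberg adjustment at a false discovery rate (FDR) of 0.05, 3 of the 112 tested members were called, or 2.68%, against 8.30% of all 15517 genes tested. Ndufa4l2 rose, and Cox6a2 and Ndufaf6 fell. Across all genes 2.96% rose and 5.34% fell. None of the 3 encodes an obligatory subunit: 2 are tissue or condition-specific isoforms and 1 is an assembly factor. The 13 mRNA and 2 rRNA genes of the mitochondrial genome yielded no call. Most of the mRNAs measured lower in KO cells and the rRNAs higher, as given below. Of the 136 members, 24 did not pass the filter on low counts, 17 of them mitochondrial and 7 nuclear. In simulated counts the edgeR test recovered only 21 of 100 genes changed by 1 on the log2 scale. Nuclear subunit genes also differed between the WT libraries, by a median log2 difference of 0.75. Few calls therefore do not show that few members differed.

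Ndufa4l2, a paralog of Ndufa4 that is known to be induced by hypoxia, measured 24.4 and 9.57 CPM in KO cells, against 0.954 and 1.52 CPM in WT cells. The counts behind these values were 204 and 81 in KO libraries B and F, against 9 and 14 in WT replicates 1 and 2. Both KO libraries lay above both WT libraries, and library B lay well above F. The mean was 17.0 ± 10.5 CPM in KO cells and 1.24 ± 0.399 CPM in WT cells (SD, n = 2 each), a 13.7-fold ratio (log2 fold change 3.77, 95% interval 2.43 to 5.10, edgeR FDR 0.0097). The gene spans 127509274 to 127517154 on chromosome 10 (GRCm38.p6), and its end overlaps Shmt2, which measured 317 and 318 CPM in KO cells, against 376 and 490 CPM in WT cells (log2 fold change -0.45, edgeR FDR 0.32). The strand setting of the counting was not given in the sources used here, so reads of overlapping genes may not be separated, and 31 of the 99 nuclear members overlap another RefSeq gene.

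Cox6a2, the heart and skeletal muscle isoform of a complex IV subunit, was nearly undetected in KO cells. It had 3 and 1 counts in the KO libraries, against 27 and 32 in the WT libraries, or 0.358 and 0.118 CPM in KO cells, against 2.86 and 3.47 CPM in WT cells. The KO values are at or under the level of 3 counts, 0.358 and 0.354 CPM in libraries B and F. The groups did not overlap (log2 fold change -3.66, 95% interval -5.28 to -2.03, edgeR FDR 0.02), but without KO library F the edgeR FDR was 0.062. The gene lies on chromosome 7 at 128205435 to 128206366, overlapping the span of Itgad, which had 0 and 1 counts in KO cells, against 1 and 3 in WT cells.

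Ndufaf6 encodes an assembly factor of complex I whose loss causes complex I deficiency in humans. It measured 10.3 and 9.57 CPM in KO cells, against 28.4 and 41.9 CPM in WT cells. The KO libraries lay close together and under both WT libraries, which differed more from each other. The mean was 9.92 ± 0.498 CPM in KO cells and 35.1 ± 9.53 CPM in WT cells (SD, n = 2 each), a 3.54-fold lower level (log2 fold change -1.82, 95% interval -2.56 to -1.08, edgeR FDR 0.015). The gene spans 11048991 to 11076237 on chromosome 4. None of the 3 calls held when no expression filter was applied, where the edgeR FDR was 0.11 for Ndufa4l2, 0.11 for Cox6a2 and 0.10 for Ndufaf6; in that setting only 2 of 27254 genes were called.

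**Figure D1:**
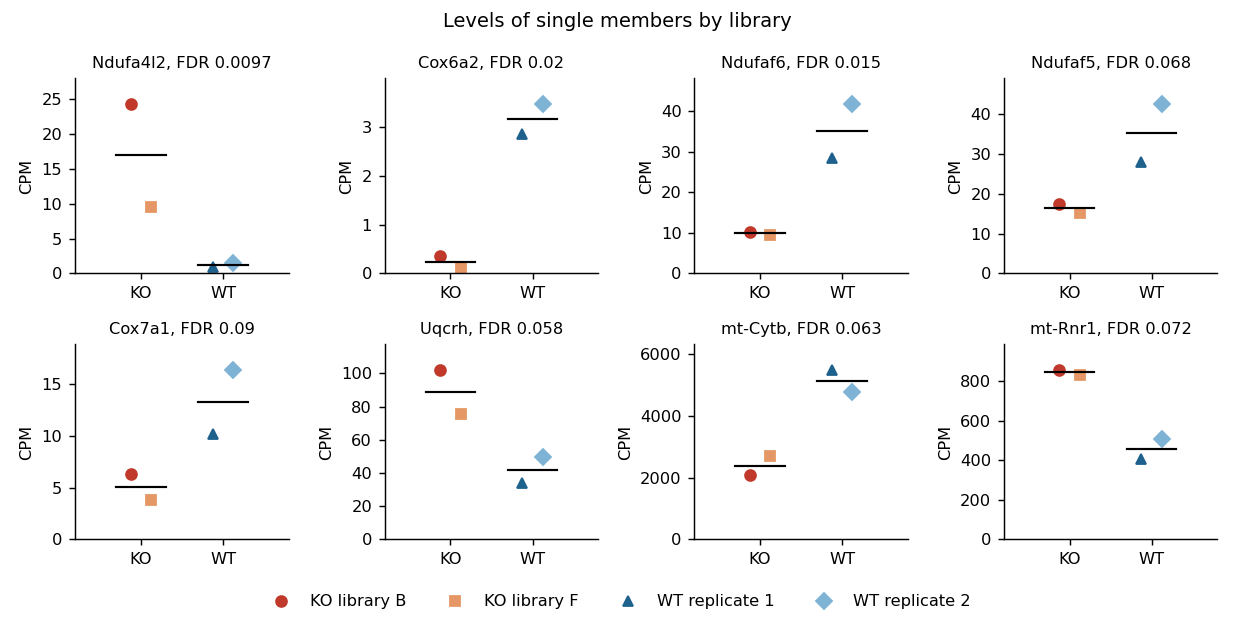
Level of 8 members in each library, in CPM, with KO libraries left and WT libraries right in each panel; points are libraries, bars are group means and titles give the edgeR FDR. The 8 were taken from the members whose KO and WT points do not overlap, and the groups overlapped in 72 of the 112 tested members. Over all genes tested, both KO libraries lay above both WT libraries in 26.0% and below them in 27.5%. Only Ndufa4l2, Cox6a2 and Ndufaf6 have an FDR under 0.05.

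Most mRNAs of the mitochondrial genome measured lower in KO cells. All 11 tested mRNA genes had log2 fold changes under 0, from -1.11 to -0.20 with a median of -0.72, beside a median of -0.0015 over all genes tested. In 9 of the 11 both KO libraries lay below both WT libraries, against 27.5% of all genes tested. The groups overlapped in mt-Co1 and mt-Nd1, the genes with the most counts. Among the 9 were mt-Co2, mt-Atp6, mt-Co3 and mt-Nd3, which had few counts per kilobase and uncertain levels, as given below. The median is the value of mt-Co2. As these mRNAs are cut from long precursors, their genes are not independent observations of the genotypes. edgeR called none of the 11, with 6 at an unadjusted p under 0.05, limma voom called none, and DESeq2 called mt-Cytb, mt-Nd4 and mt-Nd6. The 13 mRNA genes together held 2.33% and 2.79% of gene counts in KO libraries B and F, against 4.22% and 2.99% in WT replicates 1 and 2. The mean share was 2.56 ± 0.32% in KO cells and 3.61 ± 0.87% in WT cells (SD, n = 2 each). The groups did not overlap, but KO library F and WT replicate 2 differed by less than the WT libraries did, and 2 against 2 libraries cannot go below p = 0.33 in an exact permutation test.

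mt-Cytb, which encodes cytochrome b, the only mitochondrially encoded subunit of complex III, differed most. It measured 2073 and 2698 CPM in KO cells, against 5487 and 4784 CPM in WT cells. Both KO libraries lay far below both WT libraries (log2 fold change -1.11, 95% interval -1.81 to -0.41, edgeR FDR 0.063; DESeq2 adjusted p 0.0025). The edgeR FDR was 0.049 without WT replicate 1 and 0.016 without WT replicate 2, against 0.39 and 0.25 without KO libraries B and F. Its share of mitochondrial mRNA counts was 8.82% and 9.89% in KO cells, against 13.6% and 15.1% in WT cells.

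The mitochondrial complex I genes followed. mt-Nd4 measured 1753 and 1668 CPM in KO cells, against 3052 and 3184 CPM in WT cells (log2 fold change -0.87, 95% interval -1.50 to -0.24, edgeR FDR 0.095). mt-Nd2 measured 1603 and 2199 CPM in KO cells, against 3963 and 2863 CPM in WT cells (log2 fold change -0.84, 95% interval -1.58 to -0.11, edgeR FDR 0.15). mt-Nd6, which lies on the other strand from the rest, measured 882 and 776 CPM in KO cells, against 1509 and 1438 CPM in WT cells (log2 fold change -0.83, 95% interval -1.43 to -0.23, edgeR FDR 0.094). In each of these the KO libraries lay below both WT libraries, and none passed edgeR's threshold; mt-Nd2 did so without WT replicate 2 (FDR 0.034). mt-Nd5 measured 1996 and 2596 CPM in KO cells, against 4544 and 2655 CPM in WT cells (log2 fold change -0.65, edgeR FDR 0.30), with KO library F close to WT replicate 2. mt-Nd1 measured 4681 and 5942 CPM in KO cells, against 6377 and 5790.4 CPM in WT cells (log2 fold change -0.20, edgeR FDR 0.75), so here the groups overlapped. mt-Nd3 had 24 and 30 counts in KO cells, against 39 and 54 in WT cells (log2 fold change -0.64, edgeR FDR 0.44), and mt-Nd4l, at 1 and 3 counts in KO cells against 10 and 2 in WT cells, was not tested.

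Complex IV genes of the mitochondrial genome were less alike. mt-Co1, the catalytic subunit and the most counted mitochondrial gene, measured 10383 and 11274 CPM in KO cells, against 15207 and 10752 CPM in WT cells (log2 fold change -0.26, edgeR FDR 0.69). Only WT replicate 1 stood apart from the other libraries, and the groups overlapped. It held 44.2% and 41.3% of mitochondrial mRNA counts in KO cells, against 37.7% and 33.9% in WT cells. mt-Co2 measured 68.9 and 67.4 CPM in KO cells, against 109 and 116 CPM in WT cells (log2 fold change -0.72, 95% interval -1.25 to -0.20, edgeR FDR 0.094), and mt-Co3 measured 34.2 and 36.5 CPM in KO cells, against 44.2 and 46.1 CPM in WT cells (log2 fold change -0.35, edgeR FDR 0.44), both without overlap. mt-Atp6, a membrane subunit of the ATP synthase, measured 20.5 and 26.0 CPM in KO cells, against 38.6 and 43.0 CPM in WT cells (log2 fold change -0.81, 95% interval -1.44 to -0.18, edgeR FDR 0.12), and its neighbour mt-Atp8 was at 0 counts in all libraries.

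The mitochondrial rRNAs ran the other way. mt-Rnr1, the rRNA of the small mitochondrial ribosomal subunit, measured 856 and 831 CPM in KO cells, against 404 and 505 CPM in WT cells (log2 fold change 0.89, 95% interval 0.30 to 1.48, edgeR FDR 0.072). DESeq2 called it (adjusted p 0.015), and edgeR did so without WT replicate 2 (FDR 0.042). mt-Rnr2, the rRNA of the large subunit, measured 299 and 302 CPM in KO cells, against 187 and 191 CPM in WT cells (log2 fold change 0.67, 95% interval 0.14 to 1.19, edgeR FDR 0.12). In both genes the KO libraries agreed closely and lay above both WT libraries, against 26.0% of all genes tested. Per 100 mitochondrial mRNA counts there were 4.91 and 4.15 rRNA counts in KO libraries B and F, against 1.47 and 2.20 in WT replicates 1 and 2. The method used to remove or avoid rRNA in the libraries was not given in the sources used here, and its part in this difference was not tested. Of 18 listed genes for RNAs without a poly(A) tail, such as replication-dependent histone mRNAs, 15 were among the genes counted and 5 were tested. edgeR, DESeq2 and limma voom called none, with 1, Terc, at an unadjusted p under 0.05 by edgeR. Terc measured higher in KO cells (log2 fold change 1.70, edgeR FDR 0.17). Of the 5, 3 had log2 fold changes above 0 and 2 below, with a median of 0.03. The list summed to only 31.1 and 20.7 CPM in KO libraries B and F, against 20.7 and 29.6 CPM in WT replicates 1 and 2, so this median rests on few reads.

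Of the 22 mitochondrial tRNA genes, 7 were tested, which like the mRNA genes are not independent observations. Their log2 fold changes were all under 0, with a median of -0.55, both KO libraries lay below both WT libraries in 5, against 27.5% of all genes tested, and edgeR, DESeq2 and limma voom called none, with 2 at an unadjusted p under 0.05 by edgeR. The tRNA gene with the most counts, mt-Tp for proline, measured 60.4 and 52.3 CPM in KO cells, against 96.3 and 84.6 CPM in WT cells (log2 fold change -0.68, edgeR FDR 0.13). Counts were unevenly spread over the strands: of the 8 tRNA genes on the light strand, from which mt-Nd6 is also read, 6 had any count, against 2 of the 14 on the heavy strand. This count was made after the values were seen. As the strand setting of the counting was not given, the strand of the reads counted for mt-Nd6 and for these tRNA genes is not known.

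Counts also followed position on the mitochondrial chromosome, where gene lengths are known and levels can be compared per kilobase. The counts per kilobase are not scaled to library size, so they compare genes within a library. The 7 mRNA genes outside the stretch from mt-Co2 to mt-Nd4l had between 9162 and 61778 counts per kilobase in KO cells, and between 13419 and 92878 in WT cells. The 6 genes within it (mt-Co2, mt-Atp8, mt-Atp6, mt-Co3, mt-Nd3 and mt-Nd4l, positions 7013 to 10173) had at most 844 and 835 counts per kilobase in KO libraries B and F, against 1507 and 1558 in WT replicates 1 and 2. They made up 0.539% and 0.490% of mitochondrial mRNA counts in KO cells, against 0.489% and 0.665% in WT cells. The nuclear pseudogene Gm10925 (chromosome 1, 24613971 to 24614651, 681 bases), which RefSeq lists with mt-Atp6 among its synonyms, had 248 and 333 counts in KO cells, against 565 and 498 in WT cells, while mt-Atp6 itself had 172 and 220 counts in KO cells, against 364 and 396 in WT cells. How reads that match both places were handled was not given in the sources used here. Between 17.5% and 18.9% of the records in each library were reads with several alignments, which enter no gene's count, so the levels of these 6 genes are uncertain.

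**Figure D2:**
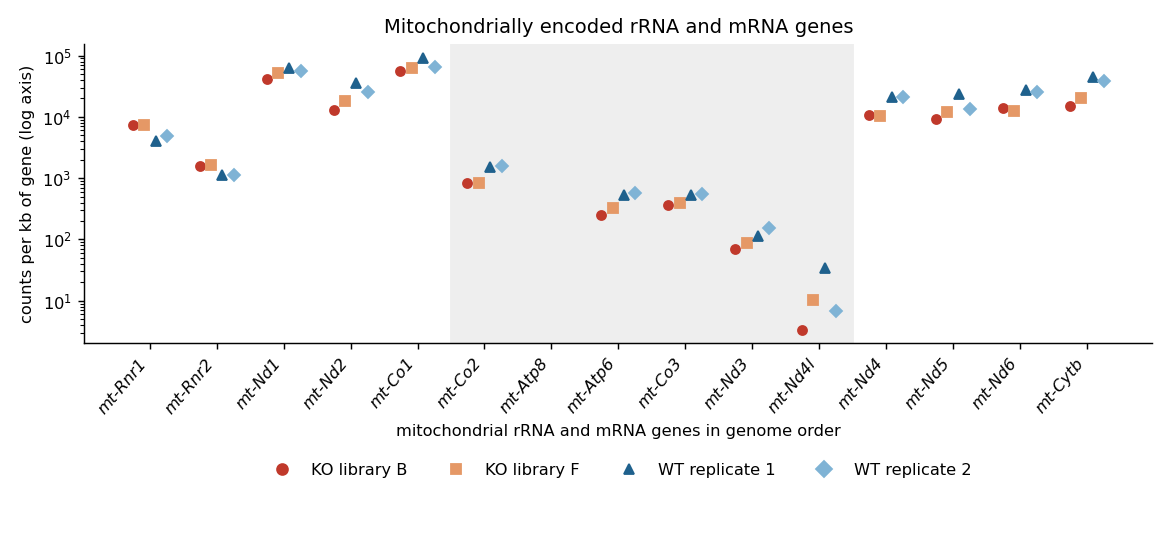
Counts per kilobase of gene (log axis) for the mitochondrial rRNA and mRNA genes in their order on the genome, 1 point per library, KO libraries left of WT libraries within each gene. The shaded block holds the 6 genes from mt-Co2 to mt-Nd4l, none above 1558 counts per kilobase, and mt-Atp8, at 0, has no point. The KO points of mt-Rnr1 and mt-Rnr2 lie above the WT points and most others below. These counts are not scaled to library size, and gene counts summed higher in both WT libraries. After scaling, the KO and WT libraries overlapped for mt-Co1 and mt-Nd1.

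The nuclear subunit genes had no such common shift between genotypes. Of 78 genes, 77 were tested and edgeR called none, with 7 at an unadjusted p under 0.05, 2 higher and 5 lower; limma voom called none and DESeq2 called Uqcrh. The median log2 fold change was -0.16, with 24 genes above 0 and 53 below. Both KO libraries lay above both WT libraries in 6 genes, or 7.79%, and below them in 10, or 13.0%. Over all genes tested these shares were 26.0% and 27.5%. The groups overlapped in 61 subunit genes. The subunit genes did separate the libraries within a genotype. WT replicate 2 exceeded WT replicate 1 in 75 of the 77, by a median log2 difference of 0.75, beside 0.0034 over all genes tested, and KO library F was below KO library B in 74 of the 77, by a median of -0.42. Both KO libraries lay between the WT libraries in 26 of the 77, or 33.8%, against 11.7% of all genes tested. Summed over the subunits, the level was 13492 and 10568 CPM in KO cells, against 10637 and 16341 CPM in WT cells. Direction therefore depended on the WT library used. Without WT replicate 1 the median was -0.54, and without WT replicate 2 it was 0.20.

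**Figure D3:**
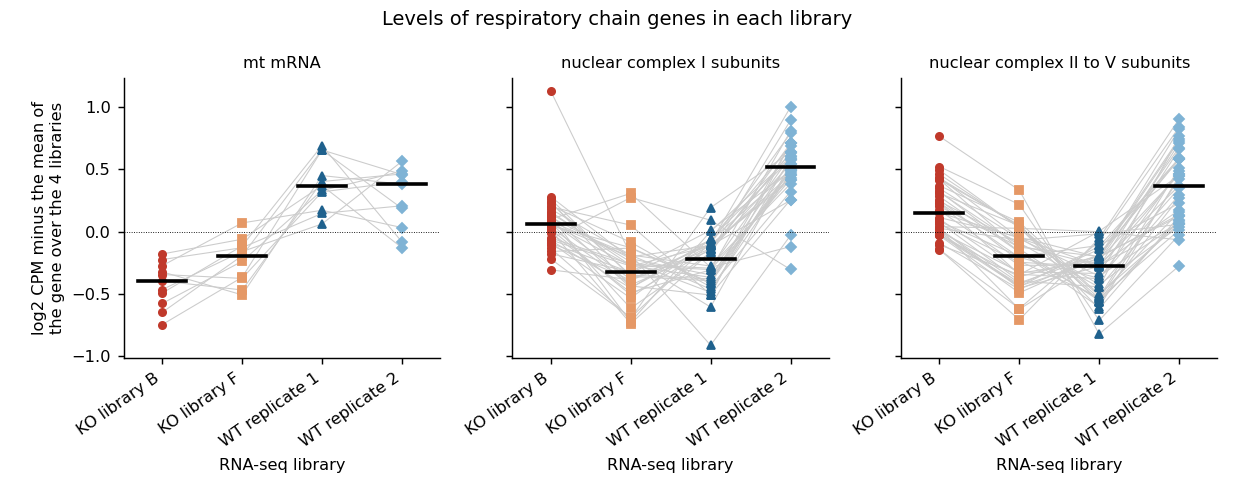
Level of each tested gene in each library as log2 CPM minus the gene's mean over the 4 libraries, for mitochondrial mRNAs (left), nuclear complex I subunits (middle) and nuclear subunits of complexes II to V (right); thin lines join 1 gene, bars are medians, and KO libraries stand left of WT libraries. Both KO medians lie below both WT medians for the mitochondrial mRNAs, whereas in the nuclear panels WT replicate 2 is the highest library and WT replicate 1 is near KO library F.

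Of the 36 tested nuclear subunit genes of complex I, the NADH dehydrogenase, 31 had log2 fold changes under 0, with a median of -0.31 that was -0.66 without WT replicate 1 and 0.03 without WT replicate 2. In 7 of the 36 both KO libraries lay below both WT libraries, or 19.4%, a smaller share than the 27.5% of all genes tested. Ndufa13, an accessory subunit also known as GRIM-19, measured 61.9 and 44.6 CPM in KO cells, against 67.7 and 144 CPM in WT cells (log2 fold change -0.99, 95% interval -1.85 to -0.14, edgeR FDR 0.15). WT replicate 2 stood far above the other libraries. Ndufb8, an accessory subunit, measured 27.4 and 18.5 CPM in KO cells, against 34.3 and 46.8 CPM in WT cells (log2 fold change -0.82, edgeR FDR 0.15). Among the most counted subunits, Ndufv1, which binds NADH and the flavin, measured 147 and 127 CPM in KO cells, against 142 and 212 CPM in WT cells (log2 fold change -0.37, edgeR FDR 0.45). Ndufa4, named for complex I although its protein has since been assigned to complex IV, measured 194 and 158 CPM in KO cells, against 123 and 210.0 CPM in WT cells (log2 fold change 0.08, edgeR FDR 0.90). In both of these the groups overlapped. Ndufs3 was listed at 0 counts in every library and was not tested.

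Complex II, succinate dehydrogenase, had a median log2 fold change of 0.18 over its 4 genes. The flavoprotein gene Sdha measured 186 and 185 CPM in KO cells, against 181 and 173 CPM in WT cells (log2 fold change 0.07, edgeR FDR 0.89). All 4 libraries lay within a narrow range. The iron-sulphur subunit gene Sdhb measured 123 and 93.1 CPM in KO cells, against 113 and 188 CPM in WT cells (log2 fold change -0.48, edgeR FDR 0.38). The membrane anchor genes Sdhc and Sdhd had log2 fold changes of 0.29 (edgeR FDR 0.56) and 0.39 (edgeR FDR 0.45), with overlapping groups.

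Complex III with cytochrome c had a median of -0.22 over 10 genes, and held the nuclear subunit closest to the threshold. Uqcrh, the acidic hinge protein beside cytochrome c1, measured 102 and 75.6 CPM in KO cells, against 33.9 and 49.6 CPM in WT cells. Both KO libraries lay above both WT libraries (log2 fold change 1.09, 95% interval 0.42 to 1.76, edgeR FDR 0.058). DESeq2 called it (adjusted p 0.015), as did edgeR without WT replicate 2 (FDR 0.0037). Its partner gene Cyc1, cytochrome c1, measured 305 and 226 CPM in KO cells, against 264 and 449.6 CPM in WT cells (log2 fold change -0.43, edgeR FDR 0.46), and the core protein gene Uqcrc2 measured 159.6 and 149 CPM in KO cells, against 155 and 163 CPM in WT cells (log2 fold change -0.04, edgeR FDR 0.93), both with overlapping groups. Uqcrb measured 72.0 and 60.9 CPM in KO cells, against 77.7 and 106 CPM in WT cells (log2 fold change -0.47, edgeR FDR 0.32), below both WT libraries, and Uqcrq showed a log2 fold change of -0.40 (edgeR FDR 0.52). Cycs, the mobile electron carrier, measured 133 and 109 CPM in KO cells, against 72.7 and 108 CPM in WT cells (log2 fold change 0.42, edgeR FDR 0.39). Beside these, the mitochondrial partner mt-Cytb, given above, differed in the direction opposite to Uqcrh.

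Complex IV, cytochrome c oxidase, had a median of -0.26 over 11 subunit genes, 6 below 0 and 5 above. Cox6a1, the ubiquitous counterpart of Cox6a2, measured 336 and 227 CPM in KO cells, against 358 and 697 CPM in WT cells. WT replicate 2 was the highest library and WT replicate 1 lay close to KO library B (log2 fold change -0.90, 95% interval -1.73 to -0.07, edgeR FDR 0.17). Without WT replicate 1 Cox6a1 was called lower (edgeR FDR 0.0024). Cox5a measured 209 and 150.5 CPM in KO cells, against 219 and 414 CPM in WT cells (log2 fold change -0.82, edgeR FDR 0.19), and Cox4i1, the ubiquitous form of subunit IV, measured 408 and 293 CPM in KO cells, against 331 and 656 CPM in WT cells (log2 fold change -0.49, edgeR FDR 0.45). Cox7a2, the ubiquitous counterpart of Cox7a1, measured 140.1 and 113 CPM in KO cells, against 59.4 and 95.7 CPM in WT cells (log2 fold change 0.71, edgeR FDR 0.18), with both KO libraries above both WT libraries. Cox8a, the ubiquitous subunit VIII, measured 286 and 214 CPM in KO cells, against 268 and 437 CPM in WT cells (log2 fold change -0.50, edgeR FDR 0.37).

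The 16 subunit genes of complex V, the ATP synthase, had a median log2 fold change of -0.03 by edgeR and 0.02 by limma voom. The edgeR median was -0.34 without WT replicate 1 and 0.28 without WT replicate 2. The groups overlapped in all 16, where 26.0% and 27.5% of all genes tested had both KO libraries above or below both WT libraries. Atp5b, the catalytic beta subunit, measured 2289 and 1884 CPM in KO cells, against 2002 and 2532 CPM in WT cells (log2 fold change -0.12, 95% interval -0.79 to 0.55, edgeR FDR 0.84). Atp5a1, the alpha subunit, measured 1411 and 1125 CPM in KO cells, against 1067 and 1334 CPM in WT cells (log2 fold change 0.08, 95% interval -0.57 to 0.72, edgeR FDR 0.89). KO library F was the lowest library for Atp5b and WT replicate 1 for Atp5a1. Atp5f1, the stator stalk subunit, measured 379.7 and 340.4 CPM in KO cells, against 304 and 386 CPM in WT cells (log2 fold change 0.06, edgeR FDR 0.91). Atp5o, which joins the stalk to the catalytic head, measured 233 and 169 CPM in KO cells, against 206 and 394 CPM in WT cells (log2 fold change -0.58, edgeR FDR 0.35). Atp5mpl, a small membrane subunit, measured 55.7 and 42.6 CPM in KO cells, against 28.0 and 43.8 CPM in WT cells (log2 fold change 0.45, edgeR FDR 0.42).

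**Figure D4:**
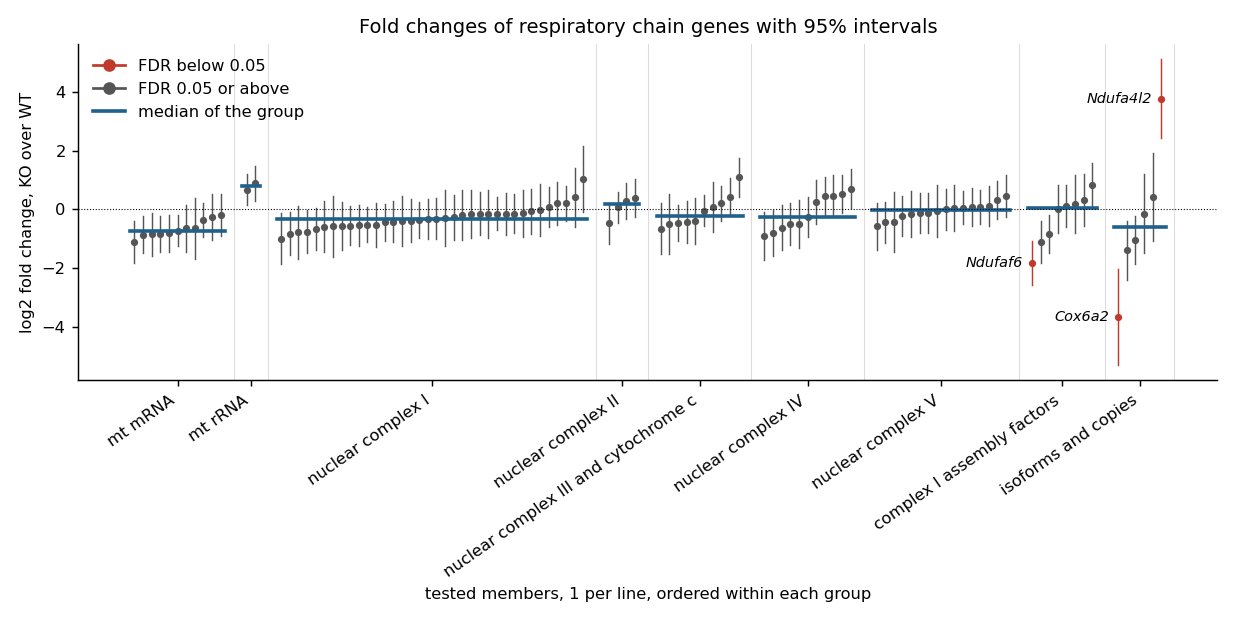
Fitted log2 fold change (KO over WT) with 95% interval for each tested member by group, ordered within the group; red marks FDR under 0.05 and blue bars are group medians. The medians are -0.72 for mitochondrial mRNA, 0.78 for mitochondrial rRNA and between -0.31 and 0.18 for the nuclear complexes; tRNA genes and Atp5s are not drawn.

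Among the 8 assembly factors of complex I named Ndufaf, 1 fell (Ndufaf6, above) and the median log2 fold change was 0.06. Ndufaf5, which modifies an arginine of a core subunit in human cells, measured 17.3 and 15.2 CPM in KO cells, against 28.0 and 42.4 CPM in WT cells. The KO libraries lay below both WT libraries (log2 fold change -1.11, 95% interval -1.83 to -0.39, edgeR FDR 0.068). It was called by DESeq2 (adjusted p 0.036) and by edgeR without WT replicate 1 (FDR 0.0070). Ndufaf4 measured 16.4 and 19.7 CPM in KO cells, against 30.0 and 34.2 CPM in WT cells (log2 fold change -0.83, edgeR FDR 0.12), also without overlap, whereas its binding partner Ndufaf3 measured 39.3 and 25.8 CPM in KO cells, against 23.5 and 41.3 CPM in WT cells (log2 fold change 0.00, edgeR FDR 0.99). Ndufaf7 measured 45.3 and 29.4 CPM in KO cells, against 17.2 and 24.9 CPM in WT cells (log2 fold change 0.83, edgeR FDR 0.17), above both WT libraries. Of 10 other complex I assembly factors tested and 35 for complexes II to V and cytochrome c, edgeR, DESeq2 and limma voom called none, with 1 and 0 at an unadjusted p under 0.05 by edgeR, and their medians were -0.12 and -0.11.

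Of the 12 isoforms and copies, 6 passed the filter and 2 were called, Ndufa4l2 higher and Cox6a2 lower, where 8.30% of all genes tested were called. Ndufa4l2 passed the filter on low counts through the KO libraries and Cox6a2 through the WT libraries, where each was high. The 2 calls are therefore not read as a result about this group. Cox7a1, the heart and skeletal muscle isoform paired with Cox7a2, measured 6.33 and 3.78 CPM in KO cells, against 10.2 and 16.4 CPM in WT cells. Both KO libraries lay below both WT libraries (log2 fold change -1.39, 95% interval -2.38 to -0.40, edgeR FDR 0.09), and edgeR called it without KO library B (FDR 0.045) and without WT replicate 1 (FDR 0.016). Cox6b2, a testis isoform, measured 62.7 and 41.7 CPM in KO cells, against 73.5 and 142 CPM in WT cells (log2 fold change -1.04, 95% interval -1.87 to -0.22, edgeR FDR 0.12), and it was called without WT replicate 1 (FDR 5.6e-04). Cox4i2, the lung and hypoxia-responsive form of subunit IV, measured 2.39 and 1.54 CPM in KO cells, against 0.742 and 2.17 CPM in WT cells (log2 fold change 0.43, edgeR FDR 0.74). Cox8b, a muscle isoform, had 0 counts in all libraries, and Cox8c, a testis isoform, had 4 and 3 counts in KO cells against 0 and 3 in WT cells.

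Set side by side, both KO libraries lay below both WT libraries in 9 of 11 mitochondrial mRNAs and in 10 of 77 nuclear subunits, where 27.5% of all genes tested did so. Their median log2 fold changes were -0.72 and -0.16. Leaving out each library kept the mitochondrial median between -0.79 and -0.64, whereas the nuclear one ranged from -0.54 to 0.20. As counts, however, there were 1.74 and 2.58 mitochondrial mRNA counts per nuclear subunit count in KO libraries B and F, against 3.79 and 1.94 in WT replicates 1 and 2, so this ratio overlapped between genotypes. The nuclear share was 1.34% and 1.08% of gene counts in KO cells, against 1.11% and 1.54% in WT cells. The difference between the mitochondrial and the nuclear genes was not tested, and the mitochondrial genes, cut from long precursors, are not independent observations.

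Genes that serve the chain were listed by function, with earlier results of these data known. The list for mitochondrial turnover and hypoxic switching also held Ndufa4l2, a member reported above. None of 18 tested genes for transcription and replication of mitochondrial DNA was called by edgeR, DESeq2 or limma voom, with 1 at an unadjusted p under 0.05, but in 12 both KO libraries lay above both WT libraries and in 0 below, against 26.0% and 27.5% of all genes tested, with a median log2 fold change of 0.31. Tfam, which packages mitochondrial DNA and starts its transcription, measured 109.8 and 123 CPM in KO cells, against 78.1 and 91.7 CPM in WT cells (log2 fold change 0.45, edgeR FDR 0.28). Tfb1m, a methyltransferase of the small-subunit rRNA, measured 14.7 and 19.5 CPM in KO cells, against 8.80 and 10.1 CPM in WT cells (log2 fold change 0.86, edgeR FDR 0.16). Of 26 genes for mitochondrial RNA processing and stability none was called by these tools, with 3 at an unadjusted p under 0.05 by edgeR and a median of 0.01. Lrpprc, which stabilises mitochondrial mRNAs, measured 156 and 181 CPM in KO cells, against 182 and 156 CPM in WT cells (log2 fold change -0.01, edgeR FDR 0.99). Of 12 tested regulators of mitochondrial biogenesis none was called by them, with 1 at an unadjusted p under 0.05 and a median of 0.28, and Ppargc1a was at 0 counts in all libraries. These named genes other than the called ones were picked after their values were seen.

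In the lists for uncoupling, alternative electron entry and ATP export and for mitochondrial turnover and hypoxic switching, 2 of 13 and 3 of 14 tested genes were called, against 8.30% of all genes tested. Bnip3, a mitophagy receptor known to be induced by hypoxia, measured 241 and 175 CPM in KO cells, against 9.54 and 11.5 CPM in WT cells (log2 fold change 4.30, 95% interval 3.61 to 4.99, edgeR FDR 0.00086). Pdk1, the kinase that restrains entry of pyruvate into the mitochondrion's oxidation, measured 168 and 229 CPM in KO cells, against 32.0 and 26.4 CPM in WT cells (log2 fold change 2.77, 95% interval 2.13 to 3.40, edgeR FDR 0.0025). Both rose in KO cells with wide gaps between the groups, as did Ndufa4l2 of the same list, whose call was already counted among the members. Gpd2, which feeds electrons from glycerol phosphate to ubiquinone, rose to 118 and 153 CPM in KO cells, against 52.3 and 37.0 CPM in WT cells (log2 fold change 1.60, 95% interval 0.96 to 2.24, edgeR FDR 0.014). Vdac2, an outer-membrane channel, fell to 156 and 137 CPM in KO cells, against 263 and 326 CPM in WT cells (log2 fold change -1.01, 95% interval -1.57 to -0.45, edgeR FDR 0.042), and lost its call without KO library B (FDR 0.22) or F (FDR 0.41).

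Promoter sequence was available from RefSeq for 77 of the 99 nuclear members, as 82 windows of 300 bases, 250 before and 50 after a gene's start (GRCm38.p6). The windows of Uqcrh, Cox6a1, Ndufaf5 and Cox7a1 are shown as examples of windows with a match to a motif. In all, 12 nuclear members with a window had the groups apart at an unadjusted p under 0.05; 7 of them had a match, and 5 (Cox5a, Cox7a2, Ndufaf7, Ndufb8 and Ndufs4) had none. The 4 were picked from the 7 with the values and the matches known. Uqcrh is at chr4:116075021-116075320 (minus strand), Cox6a1 at chr5:115348909-115349208 (minus strand), Ndufaf5 at chr2:140170396-140170695 (plus strand) and Cox7a1 at chr7:30183921-30184220 (plus strand). Capitals mark letters that matched 1 of 3 motifs searched on both strands: NRF1 (GCGC, any base, then TGCGC), an activator of respiratory genes, ETS (CCGGAAG), bound by the GABP factor, and KLF (GGGNGTGG), bound by the family of KLF4.
Uqcrh: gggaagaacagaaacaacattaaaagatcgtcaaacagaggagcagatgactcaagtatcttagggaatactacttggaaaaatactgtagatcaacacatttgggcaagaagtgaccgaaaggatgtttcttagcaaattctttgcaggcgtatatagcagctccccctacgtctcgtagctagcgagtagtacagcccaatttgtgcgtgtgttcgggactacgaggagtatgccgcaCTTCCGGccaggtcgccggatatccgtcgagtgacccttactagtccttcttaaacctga
Cox6a1: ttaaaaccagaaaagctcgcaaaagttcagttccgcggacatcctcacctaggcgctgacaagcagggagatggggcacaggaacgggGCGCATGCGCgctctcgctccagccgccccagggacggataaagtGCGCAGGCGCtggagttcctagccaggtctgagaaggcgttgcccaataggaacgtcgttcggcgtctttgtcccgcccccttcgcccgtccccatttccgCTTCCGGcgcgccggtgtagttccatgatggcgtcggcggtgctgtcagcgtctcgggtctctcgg
Ndufaf5: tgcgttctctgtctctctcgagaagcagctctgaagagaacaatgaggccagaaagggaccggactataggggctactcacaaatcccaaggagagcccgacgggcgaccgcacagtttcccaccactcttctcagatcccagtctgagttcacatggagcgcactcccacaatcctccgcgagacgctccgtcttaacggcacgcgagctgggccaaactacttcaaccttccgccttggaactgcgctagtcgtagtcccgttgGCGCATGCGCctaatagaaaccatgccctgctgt
Cox7a1: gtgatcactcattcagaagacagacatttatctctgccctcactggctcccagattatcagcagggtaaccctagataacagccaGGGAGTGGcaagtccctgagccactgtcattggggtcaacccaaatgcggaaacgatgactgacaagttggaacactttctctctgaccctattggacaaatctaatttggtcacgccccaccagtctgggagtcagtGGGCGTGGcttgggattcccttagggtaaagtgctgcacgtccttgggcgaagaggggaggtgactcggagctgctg
The match in Uqcrh is to ETS. The first 2 matches in Cox6a1 are to NRF1 and the last is to ETS. The match in Ndufaf5 is to NRF1, and both in Cox7a1 are to KLF. No matches overlapped in these 4 windows.

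Over all members the NRF1 letters stood in 20 of the 82 windows, or 24.4%, against 9.33% of the windows of tested genes and 4.60% of all 32851 windows. The ETS letters stood in 18 of the 82, or 22.0%, against 16.7% of tested and 8.86% of all windows. The KLF letters stood in 15 of the 82, or 18.3%, against 23.3% of tested and 17.6% of all windows. A match describes letters only and does not show binding. Ndufa4l2, Cox6a2 and Ndufaf6 had no window in the table.

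The HiChIP files list loops between sites bound by RNA polymerase II, each with its count of paired-end tags (PETs). Of 74 nuclear members with a gene start in the table, 72 had a loop anchor within 2500 bases in the KO pool, or 97.3%, against 74.1% of 10766 genes with a gene start. In the WT pool 53 did, or 71.6%, against 51.8% of those genes. The KO pool held 401726 PETs in 118475 loops and the WT pool 35189 in 19914, so the pools' numbers cannot be compared gene by gene, and with 1 pool per genotype there was no test. Within the KO pool, Cox7a1 had the most PETs at its start of all members, 272, with 4 in the WT pool. Ndufa7 had 237 PETs in the KO pool and 67 in the WT pool, and Ndufb10 had 195 in the KO pool and 85 in the WT pool. Uqcrh had 34 PETs in the KO pool and 10 in the WT pool, Ndufaf5 had 7 in the KO pool and 1 in the WT pool, and Cox6a1 had 22 in the KO pool and 0 in the WT pool. No loop was listed on the mitochondrial chromosome in either pool.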

How the data were processed

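The deposited RNA-seq files hold raw counts of reads per Ensembl gene, made by the authors with HISAT2 2.1.0 and HTSeq 0.9.1 on mm10, per the submitters' processing notes, which also name DESeq2 1.18.1 and HiC-Pro 2.11.4. Only whole-number counts were used. Records in no gene, of low quality, unaligned, ambiguous or with several alignments (64.0% to 65.5% of records) were left out. The deposited HiChIP files hold PET counts per loop, 1 pool per genotype. The WT columns match the labels' replicate numbers. KO columns are named B and F.

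In R 4.3.3, edgeR 4.0.16 (filterByExpr, TMM, quasi-likelihood F-test on genotype alone) tested 15517 of 52636 genes on 2 residual degrees of freedom, with a common biological coefficient of variation of 0.256. P-values were adjusted by Benjamini-Hochberg over all genes. Alternatives were DESeq2 1.42.0, limma 3.58.1, other scalings and filters, and leaving out each library; a lone library is then assumed to vary like the other genotype. Positions and promoters came from RefSeq on GRCm38.p6. In simulated counts of 15102 genes, the edgeR test recovered 21 of 100 genes changed by 1 on the log2 scale and 91 of 100 changed by 2, and called 1 unchanged gene. Members and lists were chosen with earlier results of these data known. Named are all mitochondrial mRNA and rRNA genes, nuclear members past the threshold, per nuclear group the 3 highest and the 2 with the smallest p, tissue isoforms, and called genes of other lists. 1 gene under this rule is not reported here. Genes named beyond this rule were chosen after their values were seen.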

Additional observations from a re-analysis of the deposited data

How the results depend on the processing

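No paired analysis was possible because the KO count columns carry letters and not the replicate numbers of the labels, so the genotypes share no number. Of 3 nuclear members called, the 3 scaling alternatives, limma voom and a filter of at least 1 CPM on average kept 3, DESeq2 called 5 and no expression filter 0. Leaving out each library gave 3 to 23 calls, with 23 (1 higher, 22 lower) without WT replicate 1 and 6 (4 higher, 2 lower) without WT replicate 2. The number of members called also changed in some fits that left out 1 library. The share called over all genes changed as well. It was 8.30% in the main setting and 10.6% by DESeq2, and 2 of 27254 genes were called with no expression filter. It rose in both fits without a WT replicate and fell in both without a KO library. The changing numbers of members called are therefore not read as a result about the members. The median log2 fold change of mitochondrial mRNAs lay between -0.79 and -0.64 in all settings run. That of nuclear subunits, -0.16, ran from -0.54 without WT replicate 1 to 0.20 without WT replicate 2, -0.38 without KO library B and -0.0029 without KO library F. The KO minus WT difference in the mitochondrial mRNA share of gene counts, -1.05 percentage points, ran from -1.66 without WT replicate 2 to -0.43 without WT replicate 1, and was -0.35 as a share of all records, a denominator that includes the reads outside genes. Members with a loop anchor at the gene start numbered 65 in the KO pool and 30 in the WT pool when loops of at least 2 PETs were required. The cause of these shifts was not tested. When 1 library was left out, 47 of the 112 tested members changed sign in at least 1 fit, all short of the threshold when they did so, among them 37 of 77 nuclear subunits and 1 of 11 mitochondrial mRNAs. Those of them named by the rule for named genes had log2 fold changes over those fits as follows: Atp5a1 -0.092 to 0.24, Atp5b -0.29 to 0.027, Atp5f1 -0.11 to 0.21, Cox4i1 -0.91 to 0.051, Cox4i2 -0.15 to 1.35, Ndufa4 -0.26 to 0.48, Ndufaf1 -0.11 to 0.35, Ndufaf3 -0.35 to 0.43, Uqcrc2 -0.089 to 0.014, Uqcrq -0.82 to 0.15, mt-Co1 -0.52 to 0.0037. Over the 47 genes named by that rule and all settings, 470 values kept direction and side of the threshold, 20 passed it, 10 lost it and 17 changed sign. At this depth and with 2 libraries per genotype, 3 counts equal 0.358 and 0.354 CPM in KO libraries B and F, against 0.318 and 0.325 CPM in WT replicates 1 and 2, so members near these levels, such as Cox6a2, rest on few reads.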

Other observations

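In all, 6 predicted genes lie on chromosome 1 at a nuclear copy of part of the mitochondrial genome. All were tested, and edgeR and limma voom called none, with 3 at an unadjusted p under 0.05 by edgeR, while DESeq2 called 1 lower. Their median log2 fold change was -0.58. Gm28661 measured 45.0 and 35.4 CPM in KO cells, against 69.9 and 79.1 CPM in WT cells (log2 fold change -0.89, edgeR FDR 0.074), and Gm10925 measured 29.6 and 39.3 CPM in KO cells, against 59.9 and 54.0 CPM in WT cells (log2 fold change -0.72, edgeR FDR 0.14). In both genes the KO libraries lay below both WT libraries. Gm29216 measured 30.7 and 41.3 CPM in KO cells, against 36.3 and 155 CPM in WT cells (log2 fold change -1.41, edgeR FDR 0.18), where WT replicate 2 alone stood far above the other libraries. These genes were chosen after earlier results of these data were known, and how their reads were separated from mitochondrial ones was not given in the sources used here.

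Ndufs6b, a copy of a complex I subunit gene on chromosome 7, did not pass the filter on low counts. It had 10 and 9 counts in KO cells, against 2 and 3 in WT cells. Terc, the RNA template of telomerase and 1 of the listed RNAs without a poly(A) tail, measured 1.19 and 1.30 CPM in KO cells, against 0.424 and 0.325 CPM in WT cells (log2 fold change 1.70, edgeR FDR 0.17), with both KO libraries above both WT libraries. Slc2a1, a glucose transporter gene, measured 677 and 531 CPM in KO cells, against 131 and 134 CPM in WT cells (log2 fold change 2.19, 95% interval 1.59 to 2.78, edgeR FDR 0.0039). It was added after earlier results of these data were known.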
